A study of Mus musculus with 4 samples.

Results

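Perineurial cells of the uninjured adult mouse sciatic nerve were described here from 1 library of single-cell transcriptomes. A barcode of that library was counted as a perineurial cell when it held at least 200 genes and at most 10% mitochondrial counts, at least 2 unique molecular identifiers (UMIs) over 5 marker genes with at least 2 of them detected, and no UMI of 5 genes of other cell types. The markers were Slc2a1, Casq2, Msln, Cldn1 and Itgb4, and the excluded genes were Pecam1 (endothelium), Sox10 (Schwann cells), Ptprc (leukocytes) and Mag and Prx (myelin). By this rule 66 of the 1945 barcodes kept in the uninjured library were perineurial cells, or 3.39% (95% interval 2.63 to 4.30). The whole series held 13200 barcodes, of which 12268 were kept. Because measured values chose the cells, the 10 rule genes are given as a description and no finding rests on them.

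The series held 4 Drop-seq libraries, all from wildtype CD1 mice. Uninjured adult nerve was processed with myelin removal beads, as was the distal segment of adult nerve taken 3 d after resection (3 DPI). Neonatal nerve was prepared once with beads from postnatal days 2 to 3 and once by fluorescence-activated cell sorting (FACS) from postnatal days 3 to 4. With its preparation counted as part of it, each condition had 1 library, so that condition and library cannot be told apart. No test was made, and every interval covers counting error only. The 3 DPI library shared the age class and preparation of the uninjured library, the neonatal bead library its preparation alone, and the neonatal FACS library neither. How many animals went into each library is not stated in the labels.

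The perineurium is a sleeve of flattened cells that wraps each fascicle of a peripheral nerve. Its concentric layers are joined by tight junctions and coated on both faces by basement membrane, and together with the endoneurial vessels they form the blood-nerve barrier, so that nutrients must be carried across them by transporters. Desert hedgehog made by Schwann cells is needed for the sleeve to form. The endoneurial fibroblasts lie inside it among the axons, and the epineurial fibroblasts lie outside it.

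The uninjured library held 4513814 UMIs in 2000 barcodes. Perineurial cells had a median of 1763 UMIs per cell (range 516 to 6632) and 1066 genes, against 1643 UMIs and 887 genes in the other kept barcodes, and their median mitochondrial share was 1.52%. They summed to 137421 UMIs, against 4294410 in the other kept barcodes. The library shared 1 kept barcode sequence with the neonatal bead library and 0 with each of the other two, and 0 of the perineurial barcodes was shared. Other cell classes of the same library were chosen in the same way from their own markers, giving 155 endoneurial, 307 epineurial, 376 endothelial, 164 nonmyelinating Schwann, 85 myelinating Schwann, 122 vascular smooth muscle and pericyte, and 23 immune cells.

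Sfrp5, Slc16a1 and Ntng1, which the rule did not use and which are described first among the results, have these sequences in the 100 bases before their annotated starts (RefSeq, GRCm38.p6), shown so that the 3 promoters can be set beside their levels. Capitals mark the GC box GGGCGG, searched on both strands (CCGCCC on the other), a motif bound by the Sp and KLF families of transcription factors. The windows are chr19:42202253-42202352 (minus strand) for Sfrp5, chr3:104638564-104638663 (plus strand) for Slc16a1 and chr3:110143473-110143572 (minus strand) for Ntng1. The RefSeq start of Ntng1 lies inside the longer gene span of the GENCODE annotation given below, so that its window is not upstream of that span.
Sfrp5: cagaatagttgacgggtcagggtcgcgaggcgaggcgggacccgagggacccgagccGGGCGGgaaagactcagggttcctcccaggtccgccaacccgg
Slc16a1: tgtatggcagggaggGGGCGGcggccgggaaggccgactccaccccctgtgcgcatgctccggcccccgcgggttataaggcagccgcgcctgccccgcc
Ntng1: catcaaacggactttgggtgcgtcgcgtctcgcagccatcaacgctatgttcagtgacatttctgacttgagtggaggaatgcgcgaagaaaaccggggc
Sfrp5 and Slc16a1 each held 1 GC box in this window and Ntng1 held 0. Of the 25 genes named below as the highest in perineurial cells, 17 had a promoter in the table and 8 of those (47.1%) held a GC box within 250 bases of a start, against 35.4% of all genes with a promoter. A match describes the letters only.

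The 5 markers were spread over most of the cells. Itgb4, the integrin beta 4 chain of the laminin receptor of hemidesmosomes, was detected in 58 of the 66 cells (87.9%) at 1841 UMIs per 1e+06 UMIs of the class (CPM), with a median of 2 UMIs and a maximum of 15. Slc2a1, the glucose transporter GLUT1, was detected in 52 cells (78.8%) at 1303 CPM, and Cldn1, the tight junction protein claudin-1, in 50 cells (75.8%) at 1281 CPM. Casq2, a calcium-binding protein of the sarcoplasmic reticulum, was detected in 36 cells (54.5%) at 575 CPM, and Msln, the surface protein mesothelin of mesothelial cells, in 27 cells (40.9%) at 429 CPM. Among the other kept barcodes the shares were 12.1% for Slc2a1, 10.2% for Itgb4, 2.39% for Casq2, 1.44% for Cldn1 and 0.585% for Msln. Slc2a1 and Itgb4 were the least restricted of the markers, since 36.2% and 16.0% of endothelial cells held a UMI of them, and Itgb4 was found in 22.6% of nonmyelinating Schwann cells.

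Each marker was also read in cells chosen by the other 4 markers alone. Itgb4 was then in 47 of 55 cells (85.5%), Slc2a1 in 44 of 58 (75.9%), Cldn1 in 44 of 60 (73.3%), Casq2 in 30 of 60 and Msln in 24 of 63 (38.1%). The matching shares in the remaining barcodes were 10.7% for Itgb4, 12.5% for Slc2a1, 1.75% for Cldn1, 2.71% for Casq2 and 0.744% for Msln. By number of cells, most barcodes with Slc2a1, Itgb4 or Casq2 lay outside those chosen by the other markers (235, 202 and 51 barcodes). These shares describe the rule and support no finding. The most frequent combination, Slc2a1 with Casq2, Cldn1 and Itgb4, was held by 11 cells, and 9 cells held all 5 markers.

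**Figure D1:**
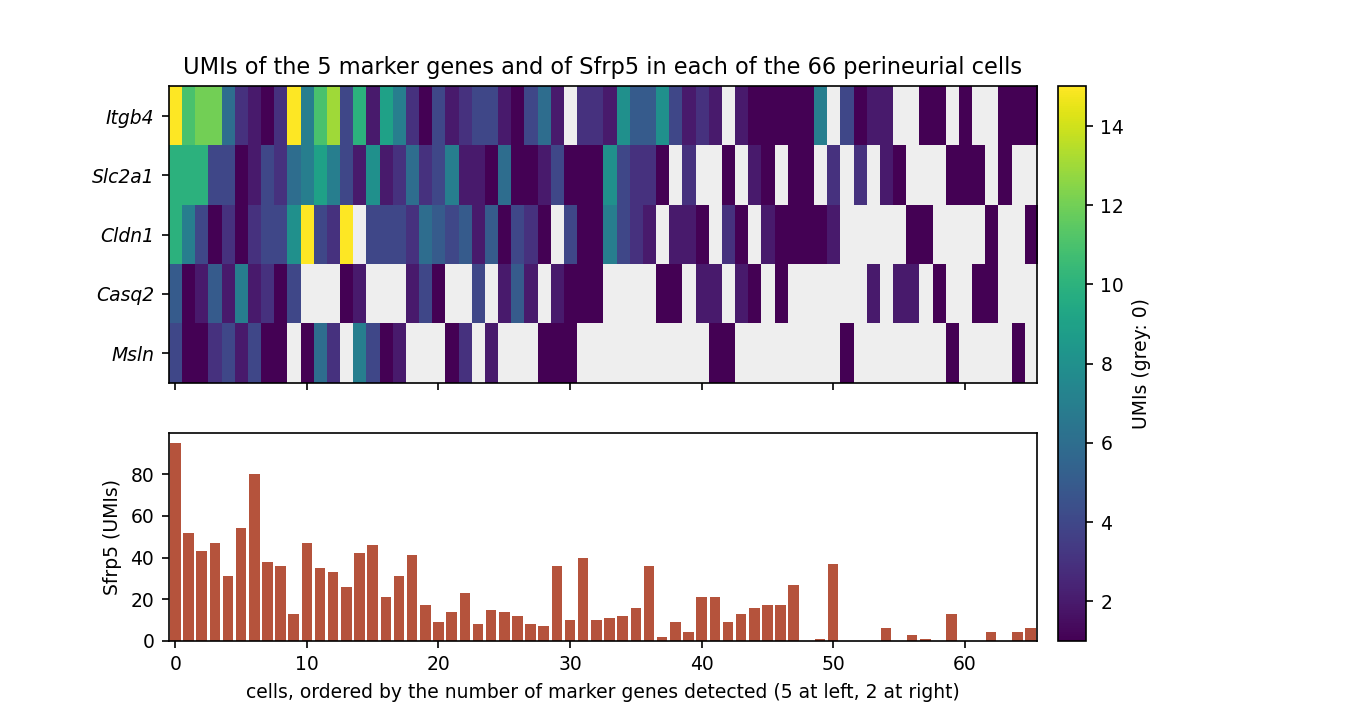
Each of the 66 perineurial cells is plotted with the UMIs of its 5 rule markers and with its UMIs of Sfrp5, a gene the rule did not use. Marker sums ran from 2 to 44 UMIs, and 57 of the 66 cells held Sfrp5, at up to 95 UMIs in a cell.

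Cells at the edge of the rule were less uniform. Of the 66 cells, 17 held 2 markers, 16 held 3, 24 held 4 and 9 held 5, and their median depths were 721, 1630.5, 2083.5 and 3718 UMIs, so that cells with more markers were also deeper. Sfrp5 was detected in 9 of the 17 cells with 2 markers, 15 of the 16 with 3, 24 of the 24 with 4 and 9 of the 9 with 5. Just inside the threshold, 9 cells had 1 UMI of each of 2 markers, and 5 of them held Sfrp5. Just outside, Sfrp5 was held by 11.6% of 138 barcodes with 1 marker UMI and by 21.4% of 42 barcodes with 1 marker at 2 or more UMIs. A further 49 barcodes met the marker part but held an excluded gene (Pecam1 in 42, Prx in 11, Mag in 6, Sox10 in 5 and Ptprc in 0), with a median depth of 5124 UMIs. Sfrp5 was held by 16 of these 49 (32.7%).

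The whole transcriptome of each cell was compared with the summed profile of each class (multinomial likelihood, own counts left out). Class markers, excluded genes and mitochondrial and hemoglobin genes were left out. The perineurial profile was summed from the 66 cells themselves, so nearness to it describes how alike they are and does not test the label. The perineurial profile was the nearest for 58 of the 66 cells (87.9%, 95% interval 77.5 to 94.6). Of the other 8 cells, 4 were nearest the endothelial profile, 2 the epineurial, 1 the nonmyelinating Schwann and 1 the smooth muscle and pericyte profile. Of these 8, 7 held just 2 markers and 2 held Sfrp5, against 55 of the 58. Conversely, 13 barcodes that the rule left out were nearest the perineurial profile, of which 11 held Sfrp5, 6 had 1 marker, 4 had an excluded gene and 3 had no marker UMI.

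**Figure D2:**
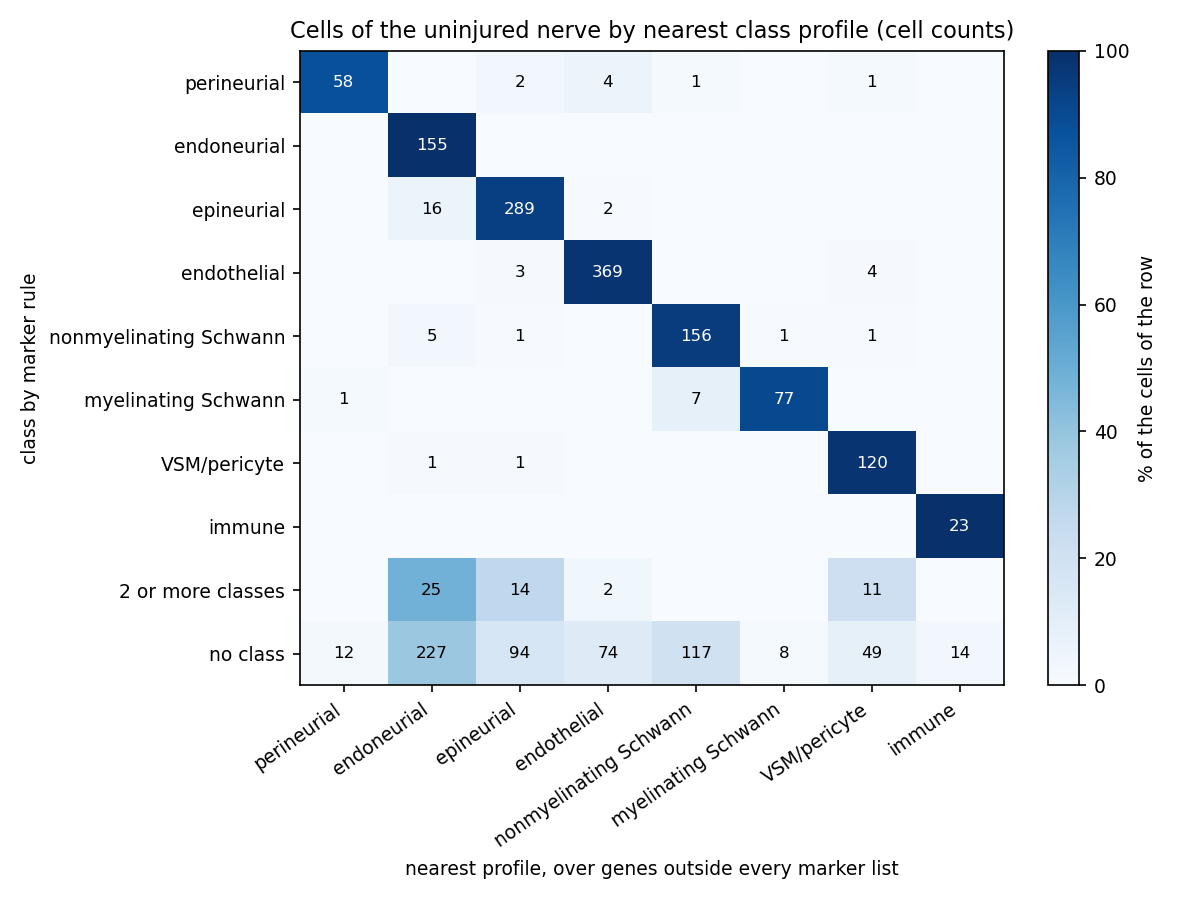
Rows are the cell classes of the uninjured library as chosen by markers, columns the nearest whole-transcriptome profile, and each cell gives the number of barcodes. The perineurial row holds 58 of its 66 cells in the perineurial column and 4 in the endothelial column.

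Markers of other cell types were low in the perineurial cells beside the level in their own class, where one was chosen. The rule itself set Pecam1, Sox10, Mag, Prx and Ptprc at 0, and each own class was chosen by these same markers. The low levels therefore describe the choice of cells and support no finding. The 5 endoneurial markers (Etv1, Wif1, Sox9, Osr2 and Meox1) summed to 94.6 CPM, or 5.10% of their level in endoneurial cells, with Wif1 at 0. The 5 epineurial markers (Pcolce2, Dpp4, Dpt, Comp and Pi16) summed to 480 CPM, or 6.56% of their level in epineurial cells, and 1 cell held 35 of their 66 UMIs. The 8 nonmyelinating Schwann markers reached 182 CPM (2.55% of their own class, with Sox10, L1cam and Ednrb at 0), the 5 myelinating Schwann markers 7.28 CPM with 4 genes at 0, the 5 smooth muscle and pericyte markers 204 CPM with Abcc9 and Kcnj8 at 0, the 6 immune markers 7.28 CPM with 5 genes at 0, and the 5 adipocyte markers 0. Beside the fibroblasts some were higher. The smooth muscle and pericyte sum was above 44.9 and 133 CPM in endoneurial and epineurial cells, but 1 cell held 19 of its 28 UMIs. The 5 skeletal muscle markers were at 43.7 CPM (6 UMIs), against 10.2 and 5.49 CPM. The nonmyelinating Schwann sum was below 316 and 228 CPM there. In all, 11 of the 66 cells also met the rule of another class, 5 of them the endothelial, 3 the epineurial, 2 the nonmyelinating Schwann and 1 the smooth muscle and pericyte rule.

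The 5 endothelial markers summed to 589 CPM, 9.19% of the level in endothelial cells but above 71.4 and 82.4 CPM in endoneurial and epineurial cells. They were unevenly spread. Cdh5, the endothelial cadherin of adherens junctions, was found in 26 of the 66 cells (39.4%) at 313 CPM with at most 5 UMIs in a cell, against 569 CPM in endothelial cells and 4.08 and 8.24 CPM in endoneurial and epineurial cells. Plvap (4 cells), Esam (3 cells) and Cldn5 (5 cells) were rare, and 14 of the 20 Cldn5 UMIs came from 1 cell. So Cdh5 was broadly detected while the other endothelial markers were confined to a few of these cells, with Pecam1 at 0 by the rule.

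The 5 red blood cell markers, which are hemoglobin genes and Alas2, summed to 3231 CPM in perineurial cells and 3222 CPM in the other kept barcodes. Of the perineurial cells, 39 held any of the 5 red blood cell markers, but 1 cell of 802 UMIs held 45.8% hemoglobin, and the next highest held 0.300%. That cell had 2 markers and 6 Sfrp5 UMIs and was nearest the perineurial profile.

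The first comparison asked which genes set perineurial cells apart from all other kept barcodes of the same nerve. Genes with at least 10 UMIs observed in perineurial cells, or expected there from the level in the other group, were compared, and a gene was counted as higher or lower when the ratio of CPM was at least 2-fold. Of 3565 genes compared, 690 (19.4%) were higher and 548 (15.4%) were lower in perineurial cells. Scaling to the median ratio over genes, which lay at 0.22 on the log2 scale, turned the split to 527 higher and 662 lower. The 2 shares are the background for counts against all other barcodes, and each later comparison is read against its own shares, given with it.

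Sfrp5, a secreted Wnt antagonist, was the most abundant of the 25 genes that led this comparison. It lies on chr19:42197971-42202252 (mm10, minus strand) and reached 9751 CPM (95% interval 9236 to 10288) in perineurial cells against 110 CPM in the other barcodes, a ratio of 88.3 (79.5 to 98.3). It was detected in 57 of 66 cells (86.4%, 75.7 to 93.6), with a median of 14 UMIs, and with every cell thinned to 500 UMIs the share was 83.8%. Endothelial cells, at a median of 1917 UMIs, held Sfrp5 in 5.59% (1.08% when thinned), endoneurial cells in 5.81% and epineurial cells in 5.54%. It was higher in the Schwann cell classes, at 395 CPM in nonmyelinating and 302 CPM in myelinating cells, in 23.2% and 29.4% of them.

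Slc16a1, the lactate and pyruvate transporter MCT1 (chr3:104638668-104658462, plus strand), was at 1324 CPM (1139 to 1531) in perineurial cells, in 47 of 66 (71.2%), against 27.9 CPM in the other barcodes, a ratio of 47.4 (37.4 to 60.2). Myelinating Schwann cells held it at 112 CPM, endothelial cells at 21.8 CPM and nonmyelinating Schwann cells at 21.7 CPM. Lypd2, a GPI-anchored Ly6 family protein, was at 997 CPM in 42 cells (63.6%), 60.3 times (45.0 to 81.5) its level in the others. Ntng1, the GPI-anchored netrin-G1 (chr3:109780040-110144011, minus strand), was at 837 CPM in 44 cells (66.7%), 58.9 times (42.8 to 81.7) the others, and was at 97.4 and 77.6 CPM in nonmyelinating and myelinating Schwann cells. Thinned to 500 UMIs, the shares of perineurial cells with a UMI were 42.2% for Slc16a1, 35.4% for Lypd2 and 36.2% for Ntng1, against 1.56%, 0.699% and 1.11% of the others.

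The rest of the 25 genes were found at fewer UMIs, and their ratios compare 137421 UMIs of perineurial cells with 4294410 of the other barcodes. Mpzl2, an epithelial adhesion protein of the immunoglobulin family, had 56 UMIs in 29 perineurial cells and 8 UMIs in all other barcodes together, a ratio of 219 (104 to 531). Kcnj13, the inward rectifier potassium channel Kir7.1, had 22 UMIs in 14 cells and 4 elsewhere, a ratio of 172 (58.4 to 686). Cxadr, an adhesion receptor found at tight junctions, had 38 UMIs in 17 cells and 8 elsewhere, a ratio of 148 (68.2 to 368). Moxd1 (ratio 137), Cst13 (125) and Pcp4 (118) followed in the order, then Snhg11 (89.3), Sfrp5, Stra6 (86.8), Egfl6 (74.4), Serpinb6c (68.2), Zbtb7c (65.1) and Mybph (62.5). The intervals of neighbours in this order overlap, so that the order itself is not firm.

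Several of these genes encode proteins known from epithelia. Of 10 listed mesothelial and keratin genes in the file, however, 2 had enough UMIs to compare, Krt19 and Gpm6a. Krt8, Krt18, Epcam and Cdh1 did not. Perp, a desmosomal protein, was at 488 CPM in 27 cells, 46.5 times (31.4 to 69.5) the others, and Krt19, a keratin of simple epithelia, was at 327 CPM in 22 cells, 45.4 times (28.1 to 74.2) the others. Klf5, a transcription factor of epithelia, was at 364 CPM in 27 cells, a ratio of 55.8 (34.5 to 92.1). Itih2 (40.1), Rspo1 (32.3), Gpm6a (30.2), Cntfr (29.2), Cldn22 (25.2) and Cdo1 (22.2) completed the 25. High ratios did not mean that the genes were found in perineurial cells alone, since Gpm6a had 57 UMIs there and 59 elsewhere, Cntfr 28 and 30, Cldn22 42 and 52, and Cdo1 27 and 38. Myelinating Schwann cells held Gpm6a at 216 CPM, against 415 CPM in perineurial cells.

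**Figure D3:**
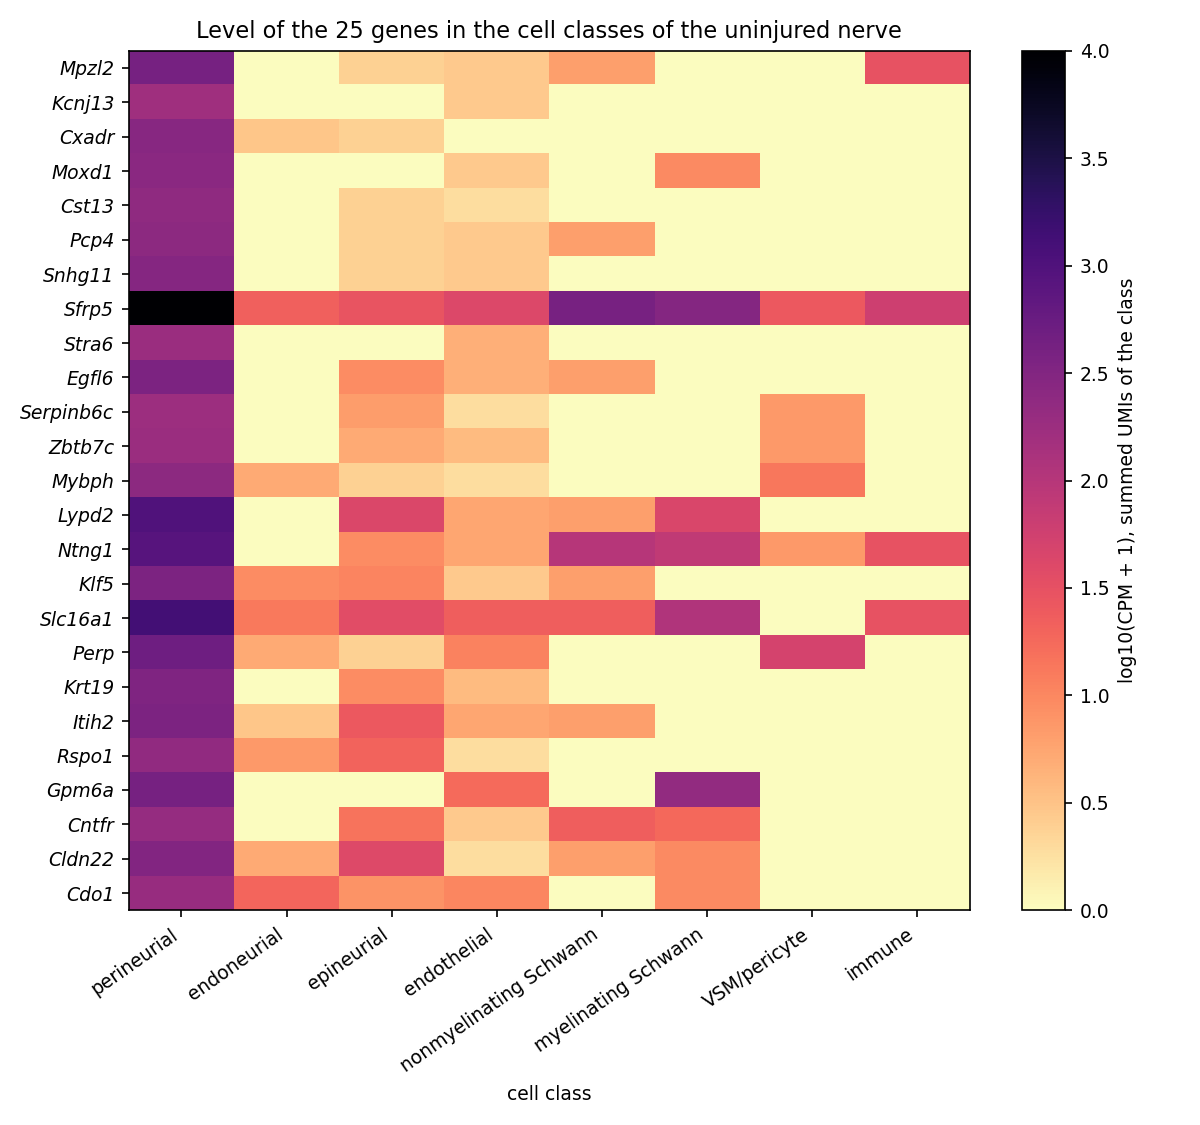
Rows are the 25 genes with the largest ratio in perineurial cells against all other kept barcodes, columns are 8 cell classes, and shade gives log10(CPM + 1). The perineurial column is the darkest in every row, which follows from how the genes were chosen. Sfrp5 is the darkest gene at 9751 CPM, and the Schwann cell columns carry Sfrp5, Ntng1 and, for myelinating cells, Gpm6a.

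Next, perineurial cells were set against the fibroblasts on either side of them. Against endoneurial cells, 3439 genes were compared, of which 1096 (31.9%) were at least 2-fold higher and 440 (12.8%) at least 2-fold lower. Against epineurial cells, 3383 genes were compared, with 930 (27.5%) higher and 432 (12.8%) lower. The median ratio lay at 0.49 and 0.44 on the log2 scale, and scaling to it gave 692 higher and 673 lower against endoneurial cells and 566 higher and 669 lower against epineurial cells. The list medians given below keep their sign after this shift is taken off.

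Tight junction genes other than Cldn1 were mostly higher in perineurial cells. Of 24 listed genes in the file, 9 had enough UMIs against endoneurial cells. Of these, 6 were higher and 2 lower (31.9% and 12.8% over all genes). The median log2 ratio was 3.89, against 0.51 over all genes compared. Against epineurial cells 6 of 7 were higher and 0 lower (27.5% and 12.8% over all genes). The median there was 2.99, against 0.44 over all. F11r, the junctional adhesion molecule JAM-A, was at 502 CPM in 36 cells, against 24.5 CPM in endoneurial, 12.4 CPM in epineurial and 268 CPM in endothelial cells. The junction scaffold Tjp1 (ZO-1) was at 422 CPM in 29 cells, against 28.6, 60.4 and 300 CPM. Cldn22 was at 306 CPM in 19 cells, against 4.08, 38.5 and 0.910 CPM, whereas Cldn5, the main claudin of endothelium, was at 145 CPM against 1922 CPM in endothelial cells. Cldn5 was counted among the higher genes against both fibroblast classes, although most of its UMIs came from a single cell, as given above.

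Genes of adherens junctions, desmosomes and gap junctions were higher for 9 of 10 genes compared with endoneurial cells (31.9% over all genes). Against epineurial cells 7 of 10 were higher (27.5% over all genes). In either comparison 0 were lower, against 12.8% over all genes (median log2 ratios 2.73 and 2.36). The catenin Ctnna1 was at 786 CPM in 42 cells, against 104 and 100.3 CPM in endoneurial and epineurial cells. Cdh11, a mesenchymal cadherin, was at 415 CPM in 33 cells, 40.7 times (16.5 to 130) the endoneurial and 10.4 times (6.55 to 16.9) the epineurial level. Jup, the plakoglobin of desmosomes, was at 298 CPM, 24.4 times (10.3 to 70.3) and 10.9 times (6.22 to 19.6) those levels. Gja1, the gap junction protein connexin 43, was 16.9 times (8.70 to 35.9) the endoneurial level but 1.51 times (1.08 to 2.06) the epineurial level.

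Transport genes were mostly higher than in either fibroblast class, and some were near their level in endothelial cells. Of 17 membrane transporters compared with endoneurial cells, 11 were higher and 3 lower (31.9% and 12.8% over all genes). Of 15 compared with epineurial cells, 10 were higher and 2 lower (27.5% and 12.8% over all genes). The median log2 ratios were 1.47 and 1.93. Abcg2, an efflux pump of barrier endothelium, was at 706 CPM in 39 cells, close to 839 CPM in endothelial cells and above 30.6 and 27.5 CPM in endoneurial and epineurial cells. Abcb1a, the efflux pump P-glycoprotein, was at 619 CPM in 38 cells, against 1161 CPM in endothelial, 10.2 CPM in endoneurial and 49.4 CPM in epineurial cells. Slc6a6, the taurine transporter, was at 560 CPM in 27 cells, against 147, 28.6 and 68.7 CPM. By contrast Fabp4, a fatty acid carrier of endothelium, was at 262 CPM against 11204 CPM in endothelial cells.

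Glucose and lactate genes other than Slc2a1 were higher for 5 of 9 genes compared, and lower for 0, against either fibroblast class (median log2 ratios 1.18 and 1.26). Over all genes 31.9% were higher against endoneurial and 27.5% against epineurial cells, and 12.8% were lower against each. Slc16a1 accounted for the largest ratios, 108 (48.8 to 299) against endoneurial and 38.6 (25.3 to 61.2) against epineurial cells. Bsg, the basigin chaperone that carries MCT1 to the membrane, was at 1914 CPM in 55 cells, against 549 CPM in endoneurial, 800 CPM in epineurial and 2486 CPM in endothelial cells. The glycolytic gene Pkm was 4.19 times (2.69 to 6.56) and 2.89 times (1.98 to 4.18) the endoneurial and epineurial levels, while for Ldha the ratios were 1.05 (0.631 to 1.69) and 1.12 (0.680 to 1.76).

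Receptors for laminin were higher for 10 of 14 genes compared with endoneurial cells (31.9% over all genes). They were higher for 11 of 14 compared with epineurial cells (27.5% over all genes). In both comparisons 0 were lower, against 12.8% over all genes (median log2 ratios 1.95 and 1.62). Itga6, the alpha 6 chain that pairs with the marker Itgb4, was at 924 CPM in 45 cells (68.2%), against 10.2, 8.24 and 234 CPM in endoneurial, epineurial and endothelial cells. Itga7 was at 466 CPM in 34 cells, at least 76.1-fold above endoneurial cells, where no UMI was found, and Bcam, the receptor of laminin alpha 5, was at 480 CPM in 34 cells, 58.9 times (21.9 to 222) the endoneurial level. Itgb1, the common beta 1 chain, was 1.49 times (1.18 to 1.87) the endoneurial level.

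Basement membrane genes went both ways. Against endoneurial cells 9 of 19 were higher and 7 lower (31.9% and 12.8% over all genes). Against epineurial cells 10 of 18 were higher and 5 lower (27.5% and 12.8% over all genes). The median log2 ratios were 0.94 and 1.25. Lamb2, the laminin beta 2 chain, was at 1324 CPM in 47 cells, 3.38 times (2.75 to 4.16) the endoneurial level, and Col4a1 and Col4a2, the common collagen IV chains, were 2.65 times (2.14 to 3.28) and 2.54 times (1.91 to 3.36) that level. Lamb1, at 80.0 CPM against 634 CPM in endoneurial cells, and Lama2, at 87.3 against 881 CPM, were the laminin chains with the reverse order. Col15a1 was likewise low, at 116 CPM against 2730 CPM in endoneurial cells.

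Some basement membrane chains that were scarce elsewhere in the nerve were found in a minority of perineurial cells. Lamb3, a chain of epithelial laminin 332, had 19 UMIs in 8 of the 66 cells and 1 UMI in all other barcodes together, and 7 of the 19 were from 1 cell. Col4a3 had 9 UMIs in 8 cells and Col4a4, a partner in the same collagen IV network, had 13 UMIs in 10 cells, 25.6 and 17.7 times their levels in the others. Npnt, nephronectin, had 29 UMIs in 15 cells, at least 51.2-fold above epineurial cells, where it was at 0.

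Fibrillar collagens and other interstitial matrix were lower than in epineurial cells, for 22 of 33 genes with 1 higher (median log2 ratio -1.51). The shares over all genes were 12.8% lower and 27.5% higher. Against endoneurial cells the list divided, with 11 of 31 higher and 12 lower (31.9% and 12.8% over all genes, median -0.11). Col1a1 was at 1717 CPM, against 8725 CPM in endoneurial and 9199 CPM in epineurial cells, and Col3a1 was at 2692 CPM against 15758 and 23668 CPM. Summed per cell, the list took a median of 4.07% of the UMIs of a perineurial cell, 11.4% of an endoneurial and 8.47% of an epineurial cell. Genes above the endoneurial level included Fmod, the collagen-binding fibromodulin, with 41 UMIs against 1 in endoneurial cells, and Mfap5, a microfibril protein, at 4.95 times (4.12 to 5.95).

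Contractile genes were higher for 12 of 14 compared with endoneurial cells and 1 was lower (31.9% and 12.8% over all genes). Compared with epineurial cells, 11 of 14 were higher and 0 lower (27.5% and 12.8% over all genes). The median log2 ratios over the endoneurial and epineurial levels were 2.01 and 2.23. Cald1, which binds actin and myosin, was at 2132 CPM in 54 cells, 4.20 times (3.53 to 4.99) and 4.62 times (3.94 to 5.42) these levels. Tagln, a smooth muscle actin-binding protein, was at 1324 CPM but in 26 cells only, with 43 of its 182 UMIs in 1 cell, and Acta2, smooth muscle actin, was at 677 CPM in 17 cells. Smooth muscle and pericyte markers stood at 204 CPM in these cells, with 19 of their 28 UMIs in 1 cell. What part smooth muscle and pericytes had in the Tagln and Acta2 levels was not tested.

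**Figure D4:**
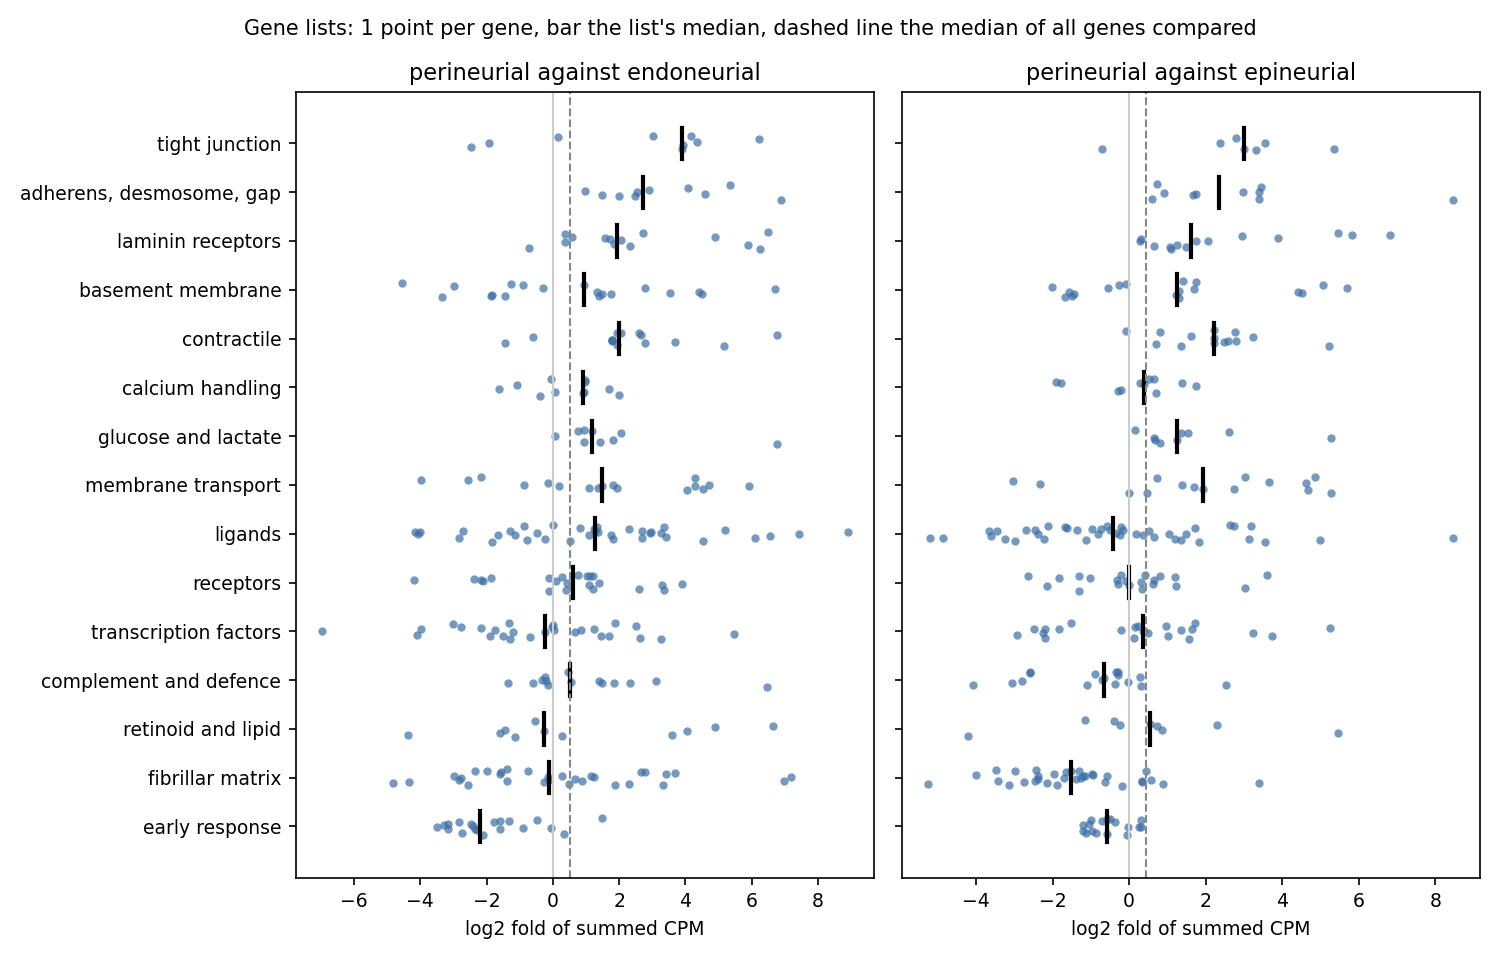
Each point is a gene of a listed group, and the horizontal axis gives its log2 ratio of CPM in perineurial cells over endoneurial cells in one panel and over epineurial cells in the other. Junction, laminin receptor and contractile genes lie mostly to the right of 0, fibrillar matrix genes lie mostly to the left against epineurial cells (22 of 33 at least 2-fold lower), and early response genes lie to the left against endoneurial cells (15 of 20). Over all genes 12.8% were at least 2-fold lower in each panel.

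Secreted ligands were counted because the study concerned ligands made by nerve cells. Of 37 compared with endoneurial cells, 21 were higher and 9 lower (31.9% and 12.8% over all genes, median log2 ratio 1.28). Of 42 compared with epineurial cells, 13 were higher and 16 lower (27.5% and 12.8% over all genes, median -0.42). The share higher against epineurial cells was thus near that over all genes. Gas6, the ligand of the TAM receptor kinases, was at 3231 CPM in 55 cells (83.3%), with a median of 5 UMIs, 68.9 times (45.3 to 110) the endoneurial and 3.54 times the epineurial level. Wnt6 was at 349 CPM in 26 cells, against 1 UMI in all endoneurial cells together and 10.99 CPM in epineurial cells, and Rspo1, which strengthens Wnt signals, was at 226 CPM in 20 cells. Thus genes of Wnt ligands, of the enhancer Rspo1 and of the antagonists Sfrp5 and Sfrp1 (830 CPM in 33 cells) were detected in the same class.

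Guidance genes of this class included Ntn1, the netrin-1 of axon guidance, at 480 CPM in 38 cells, 7.60 times (4.89 to 12.05) the endoneurial level, and Sema3d, a secreted semaphorin, at 386 CPM in 24 cells, 9.06 times (5.71 to 14.6) the epineurial level. Among ligands lower than in fibroblasts, Angptl7 was at 240 CPM against 4023 CPM in endoneurial cells, Ccl11 at 109 CPM against 1760 CPM, and the growth factor Igf1 at 109 CPM against 1191 CPM in epineurial cells. The receptor Pdgfra, which marks nerve mesenchymal cells, was at 160 CPM in 13 of 66 cells, against 687 CPM in endoneurial and 400 CPM in epineurial cells.

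Of the 12 Hedgehog pathway genes few had enough UMIs to compare. Against endoneurial cells 1 of 2 was higher and 0 lower (31.9% and 12.8% over all genes). Against epineurial cells 1 of 3 was higher and 2 lower (27.5% and 12.8% over all genes). Gli1, the pathway's target gene, was at 124 CPM in 16 cells, 1.44 times (0.771 to 2.59) the endoneurial and 3.46 times (1.76 to 6.63) the epineurial level, so that it was not told apart from endoneurial cells at this depth. The coreceptor Gas1 was at 175 CPM in 7 cells, against 849 CPM in epineurial cells.

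Transcription factors went both ways, with 8 higher and 12 lower of 27 against endoneurial cells (31.9% and 12.8% over all genes). Against epineurial cells 8 were higher and 7 lower of 23 (27.5% and 12.8% over all genes). Nr2f2, the nuclear receptor COUP-TFII, was at 1666 CPM in 50 cells, 6.24 times (5.01 to 7.79) and 9.48 times (7.60 to 11.9) the endoneurial and epineurial levels. Klf5 was 44.6 times (16.4 to 170) and 37.8 times (17.1 to 98.9) those levels, and the forkhead gene Foxc1, at 291 CPM in 23 cells, was 5.71 times (3.38 to 9.82) and 13.2 times (7.25 to 25.3) them. Klf4 went the other way, at 182 CPM against 1240 and 827 CPM.

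Immediate early response genes, which dissociation of tissue is known to raise, were lower in perineurial cells than in the other barcodes for 19 of 20 genes, with 0 higher (median log2 ratio -1.85, against 0.21 over all genes). Over all genes 15.4% were lower and 19.4% higher in that comparison. Against endoneurial cells 15 of 20 were lower and 1 higher (12.8% and 31.9% over all genes). Against epineurial cells 4 of 17 were lower and 0 higher (12.8% and 27.5% over all genes). Their summed share of UMIs had a median of 0.420% in perineurial cells (range 0 to 8.15), 0.602% in epineurial, 4.47% in endoneurial and 5.28% in nonmyelinating Schwann cells. Fos was at 2045 CPM against 10883 CPM in endoneurial cells, and Jun at 1106 CPM against 9988 CPM.

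By ratio alone, the genes highest against endoneurial cells after Sfrp5 (478, 259 to 999.5) were Itih2, Wnt6, Lypd2, Fmod, Slc7a2, Ntng1, Cxadr and Col12a1. Lypd2 was at least 163-fold and Ntng1 at least 137-fold higher, since endoneurial cells held no UMI of either, and the other 6 rested on 1 UMI in endoneurial cells each, so that their ratios of 125 to 178 are loose. Against epineurial cells Perp and Sfrp5 (355 each) led, followed by Mpzl2, Snhg11, Cxadr, Mybph, Pcp4, Cst13, Itga6 (112, 50.1 to 311) and Ntng1 (102, 45.2 to 282). Of the genes lowest against endoneurial cells, Abca6 had 1 UMI in perineurial cells against 1030 CPM, Osr2 1 UMI against 907 CPM and Cpxm2 1 UMI against 795 CPM, and Tnfaip6, Rasgrp2, Ifi30, A2m, Enpp2, Myoc and Crispld2 followed. Those lowest against epineurial cells were Pcolce2, with 1 UMI against 1143 CPM, then Penk, Smpd3, Ifi204, Col14a1, Lrrn4cl, Fndc1, Cxcl14, Cpxm2 and Adh1. Osr2 and Pcolce2 are markers that chose the compared classes.

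The perineurial cells also varied among themselves. With each cell thinned to 500 UMIs, the variance over the mean (Fano factor) of the 66 cells had a median of 1.10 over 1349 genes. Hbb-bs (118) and Hba-a1 (90.4) were highest, with 81.6% and 86.1% of their UMIs in the hemoglobin-rich cell. Malat1, a nuclear RNA, followed at 13.1, then Sparcl1 (6.58), the matrix proteoglycan Dcn (5.48), Gsn (4.79), Egr1 (4.45), Igfbp6 (4.13), Apod (3.66) and Fos (3.59). Sfrp5 had a Fano factor of 3.17, where counting alone gives 1. The 5 markers ranged from Msln (0.877), Cldn1 (1.01) and Casq2 (1.05) to Slc2a1 (1.70) and Itgb4 (1.93). Their counts chose the cells, and thinned Msln had at most 1 UMI in a cell, so their spread supports no finding.

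Finally, the same rule was applied to the other 3 libraries, where it found 46 of 2281 barcodes at 3 DPI (2.02%), 35 of 2306 in neonatal FACS nerve (1.52%) and 84 of 5736 in neonatal bead nerve (1.46%). These cells were deeper, with medians of 6612.5, 3976 and 2048 UMIs, and held fewer markers each: 74.2% of the uninjured cells held at least 3 markers, against 23.9%, 37.1% and 35.7%. The uninjured perineurial profile was the nearest for 15 of the 46 barcodes at 3 DPI, 26 of 35 in neonatal FACS and 62 of 84 in neonatal bead nerve. At 3 DPI, 32 of the 46 also met another class's rule, against 11 of 66 in uninjured nerve, 4 of 35 and 14 of 84, and their endoneurial markers summed to 1021 CPM against 94.6 CPM. The barcodes from 3 DPI are therefore described by the rule and not called perineurial cells.

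Against the 3 DPI barcodes, 3700 genes were compared, and 891 (24.1%) were higher and 756 (20.4%) lower in uninjured perineurial cells. The median ratio lay at 0.18 on the log2 scale, and scaling to it gave 743 higher and 881 lower. Without the barcodes of both libraries that met another class's rule, 756 were higher and 787 lower of 3179 compared. Against the neonatal bead barcodes, 3642 genes were compared, with 792 (21.7%) higher and 634 (17.4%) lower, and the median ratio lay at 0.03.

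Sfrp5 was at 9751 CPM in uninjured cells, 876 CPM in the 3 DPI barcodes, 974 CPM in neonatal FACS and 914 CPM in neonatal bead barcodes. The uninjured level was 11.1 times (9.84 to 12.6), 10.01 times (8.47 to 11.9) and 10.7 times (9.13 to 12.5) the others. Among barcodes with at least 3 markers the levels were 10831, 3607, 1270 and 1480 CPM, so that the gap to 3 DPI was smaller there while uninjured cells stayed the highest. Gas6 was at 3231, 268, 371 and 240 CPM, Lypd2 at 997, 41.8, 138 and 168 CPM, Ntng1 at 837, 39.1, 126 and 189 CPM and Itga6 at 924, 114, 214 and 260 CPM. For each of these genes uninjured cells had the highest level and the intervals did not overlap. With at least 3 markers the 3 DPI levels were 568 CPM for Gas6, 185 CPM for Lypd2, 86.5 CPM for Ntng1 and 334 CPM for Itga6, against 3605, 1019, 882 and 985 CPM in uninjured cells.

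Slc16a1 and Cxadr differed less between the uninjured and neonatal nerve. Slc16a1 was at 1324, 100.4, 742 and 791 CPM in the 4 libraries, and uninjured cells were 1.67 times (1.34 to 2.09) the neonatal bead level. Cxadr was at 277 CPM in uninjured, 289 CPM in neonatal FACS and 413 CPM in neonatal bead barcodes. The efflux pump Abcb1a, in contrast, was at 619 CPM in uninjured cells, at 16.7 CPM (6 UMIs) at 3 DPI and at 0 in both neonatal libraries, at least 40.4-fold lower in the neonatal bead barcodes, and Abcg2 was at 706, 69.7, 31.4 and 30.6 CPM. Cldn22 was at 306 CPM in uninjured cells and had 3, 0 and 2 UMIs in the other 3 libraries. The gaps to 3 DPI were smaller in the stricter sets. Without barcodes that met another class's rule, Abcg2 was at 718 CPM in uninjured and 248 CPM in 3 DPI barcodes, Abcb1a at 541 and 62.0 CPM (3 UMIs) and Cldn22 at 310 and 62.0 CPM (3 UMIs). With at least 3 markers Abcg2 was at 668 and 148 CPM.

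**Figure D5:**
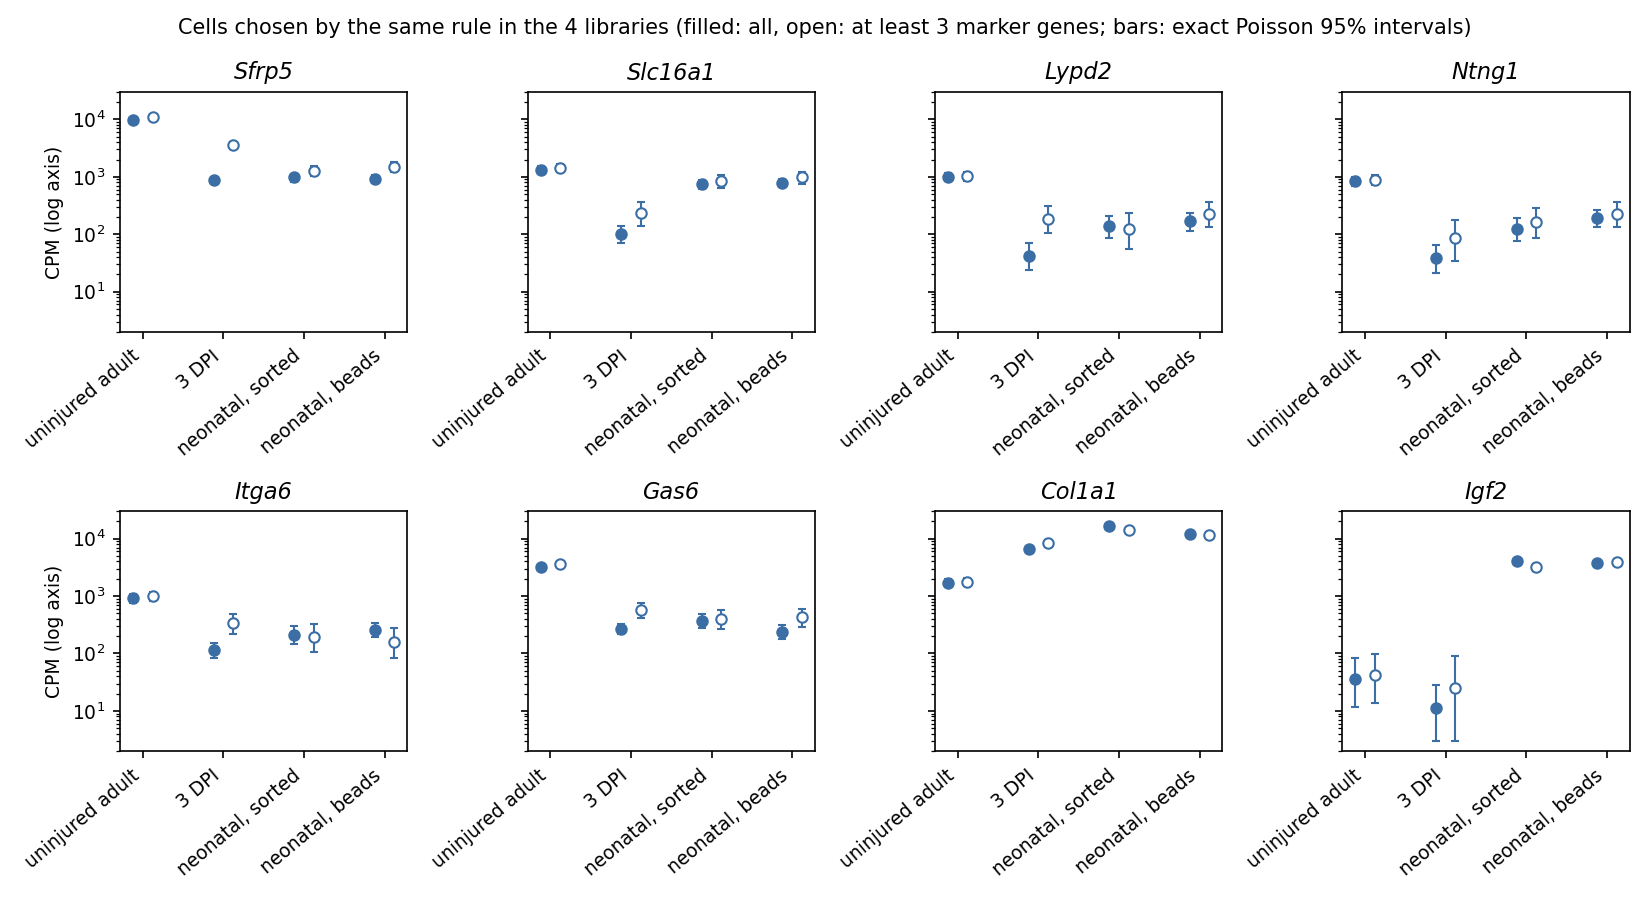
CPM on a log axis for 8 genes in the barcodes that met the same rule in each of the 4 libraries, with bars for the 95% counting interval; filled points are all such barcodes and open points those with at least 3 markers. Sfrp5, Slc16a1, Lypd2, Ntng1, Itga6 and Gas6 are highest in uninjured nerve, Col1a1 is lowest there (1717 CPM), and Igf2 is at 3746 and 4073 CPM in the neonatal libraries, against 36.4 CPM.

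Collagens and growth genes ran the other way. Col1a1 was at 1717 CPM in uninjured cells, 6709 CPM at 3 DPI, 16934 CPM in neonatal FACS and 12060 CPM in neonatal bead barcodes. Of 32 fibrillar matrix genes compared with neonatal bead barcodes, 15 were lower and 5 higher in uninjured cells. Over all genes 17.4% were lower and 21.7% higher. Igf2, a fetal growth factor, was at 36.4 CPM in uninjured cells against 4073 and 3746 CPM in the neonatal libraries, and Dlk1, a Notch-family ligand of immature cells, had 0 UMIs against 1031 and 1654 CPM. Col14a1, Col11a1, Fbn2, Kcnk2, Mest, Col26a1, Penk and Cthrc1 were the other genes lowest against neonatal bead barcodes, and Ntn4, Snhg11, Perp, Abcb1a, Neat1, Tagln, Epas1, Cldn22, Mt1 and Gpm6a were the highest.

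Against 3 DPI, the genes highest in uninjured cells were Mybph, Pcp4, Gdpd5, Gpm6a, Slc16a9, Abcb1a, Cldn22, Fmod, Hba-a1 and Vtn, of which Hba-a1 rested on the hemoglobin-rich cell. Those lowest were Ccl9, Ccl2, Timp1, Cthrc1, Thy1, Vcan, Gm10275, Tnfaip6, Spp1 and Col26a1. Ccl9 was at 837 CPM in the 46 barcodes but at 20.7 CPM in the 14 that met no other class's rule, and the chemokine Ccl2 at 1933 and 186 CPM. The secreted protein Spp1 was at 8935 and 8059 CPM and the protease inhibitor Timp1 at 1824 and 1488 CPM, against 255 and 21.8 CPM in uninjured cells. So the Ccl9 and Ccl2 levels were mostly in barcodes with markers of other classes, while Spp1 and Timp1 stayed high without them.

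Cell cycle genes were scarce in uninjured nerve, and not in perineurial cells alone. They summed to 80.0 CPM in perineurial, 73.4 CPM in endoneurial and 50.8 CPM in epineurial cells, and to 119 CPM in all other kept barcodes. Pcna was the only one of 12 with a UMI in perineurial cells (11 UMIs in 9 cells), Mki67 and Top2a being at 0. The sums were 585 and 332 CPM in the neonatal FACS and bead barcodes. The 3 DPI barcodes, 32 of which also met another class's rule, held all 12, at 1565 CPM in sum in 23 of the 46. Of 9 cell cycle genes compared between the uninjured and 3 DPI libraries, 8 were lower in uninjured cells and 0 higher. The shares over all genes were 20.4% lower and 24.1% higher. The 0 UMIs of Mki67 allow up to 26.8 CPM at this depth.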

How the data were processed

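Drop-seq was run on dissociated sciatic nerve, and the authors deposited 1 table of raw UMI counts per library, with genes in rows and barcodes in columns (build mm10 per the submitters' processing notes). All 4 tables were used whole, with 0 columns left unused. Barcodes with at least 200 genes and at most 10% mitochondrial UMIs were kept. Counts were summed over cells of a class and divided by their total (CPM). UMIs were summed within 1 library per condition, so no test was run. Shares carry exact Clopper-Pearson 95% intervals, CPM exact Poisson intervals, and ratios exact conditional binomial intervals. A group at 0 was set to 3 UMIs over the group. No doublet caller was run, but the rule required 0 UMIs of 5 genes of other types, and the 5% of barcodes with the most UMIs were left out as an alternative. The other classes needed 2 UMIs of 2 of their own markers. The genes named were the 25 highest against all other barcodes, rule genes left out, the 10 highest or lowest in each other comparison (each detected in at least 20% of a group), the 10 with the highest Fano factor, and genes of fixed lists, all counted, in at least 10% of the perineurial cells (genes named below that share, and Cldn5, Plvap, Esam, Mki67 and Top2a, belong to marker lists). Of 619 listed genes, 596 were in the file, 6 under an older symbol. A few of the named genes are not reported here. The members and lists were chosen with earlier results of these data known. Computations used Python 3.11.15 with numpy 2.4.6, scipy 1.17.1 and pandas 2.3.3, and were tested on simulated data.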

Additional observations from a re-analysis of the deposited data

How the results depend on the processing

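The rule and the count minimum set the numbers most. Choosing with Slc2a1, Casq2 and Msln alone gave 40 perineurial cells in place of 66, and 574 genes at least 2-fold higher than at 3 DPI in place of 891. Without the excluded genes 115 barcodes were chosen, 57.39% nearest the perineurial profile in place of 87.88%, and 2771, 2343 and 1823 genes were higher against endoneurial, epineurial and neonatal bead cells, with 8853, 8785 and 9425 genes compared. With at least 3 markers 97.96% were nearest the perineurial profile. Thinned to 500 UMIs, 41 barcodes met the rule, 39 of them among the 66. A minimum of 20 UMIs left 322, 512, 427, 428 and 385 genes higher against all others, endoneurial, epineurial, 3 DPI and neonatal bead cells, and no minimum gave 5603, 3518, 3700, 2531 and 2062. Scaling to the median ratio gave 692 and 566 genes higher against endoneurial and epineurial cells. The other alternatives kept each count within 1.5 times, but the balance of higher and lower genes turned in some. Median scaling turned 690 and 548 to 527 and 662 against all others, 930 and 432 to 566 and 669 against epineurial cells, and 891 and 756 to 743 and 881 at 3 DPI. Slc2a1, Casq2 and Msln alone gave 574 and 771 at 3 DPI and 643 and 678 against neonatal bead cells, and leaving out barcodes that met another class's rule gave 756 and 787 at 3 DPI. The 25 genes were picked for large ratios in these cells, so their recomputed ratios, all 175 above 2-fold, support no finding. The lowest was 5.56 for Cdo1 without the excluded genes. In that setting 23 of the 25 left their counting interval (Sfrp5 from 88.3 to 31.4, Slc16a1 from 47.4 to 11.7, Ntng1 from 58.9 to 13.9). With Slc2a1, Casq2 and Msln alone 6 left it (Mpzl2 from 219 to 89.3), and Sfrp5 came to 76.2 without the deepest barcodes. Of the shares of the 25 genes 24 moved when thinned, all downward. Leaving out cells that met another class's rule or were nearest another profile, or the hemoglobin-rich cell, was added after seeing the data and gave 650, 688 and 691 genes higher than all others in place of 690. No paired analysis was possible because each condition had 1 library. Depth limits genes under 10 UMIs in the 66 cells.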

Other observations

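Soluble and membrane-bound complement inhibitors were detected in perineurial cells. Serping1, the C1 inhibitor, was at 3995 CPM in 58 of the 66 cells, against 1425 CPM in endoneurial and 4102 CPM in epineurial cells, and Cd55, which speeds the decay of complement convertases, was at 247 CPM in 19 cells, against 28.5 and 205 CPM. Of 14 genes of the list compared with endoneurial cells, 6 were at least 2-fold higher and 1 lower (31.9% and 12.8% over all genes). Of 17 compared with epineurial cells, 1 was higher and 6 lower (27.5% and 12.8% over all genes). The antigen presentation genes H2-D1 and H2-K1 were at 735 and 357 CPM, against 3553 and 1648 CPM in endothelial cells.

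Stra6 and Crabp2, of retinoid handling, were found in a minority of the cells. Stra6, the receptor for retinol uptake, had 25 UMIs in 15 cells and 0 in endoneurial and epineurial cells, and Crabp2, which carries retinoic acid, had 14 UMIs in 9 cells. Apod, the apolipoprotein that is abundant in endoneurial fibroblasts, was at 3427 CPM against 70268 CPM there, and 28.7% of its perineurial UMIs came from 1 cell. Of 11 genes of the retinoid and lipid list compared with endoneurial cells, 4 were higher and 4 lower (31.9% and 12.8% over all genes).

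Igfbp6, an insulin-like growth factor binding protein, was detected in 63 of the 66 cells at 15202 CPM, against 1071 CPM in endoneurial, 6285 CPM in epineurial and 399 CPM in endothelial cells. In the barcodes that met the same rule in the other libraries it was at 1411 CPM at 3 DPI, 2760 CPM in neonatal FACS and 3766 CPM in neonatal bead nerve. Among Wnt receptors, Fzd7 was at 211 CPM in 18 cells, 6.09 times (3.24 to 11.8) the endoneurial and 8.09 times (4.38 to 15.3) the epineurial level, and Fzd1 was at 160 CPM in 15 cells. Of the calcium handling genes other than Casq2, 2 of 11 were higher and 2 lower against endoneurial cells. Over all genes compared the shares were 31.9% higher and 12.8% lower, so the list was not enriched for higher genes. Among the 2 higher was the plasma membrane calcium pump gene Atp2b4, at 3.98 times (2.45 to 6.46) the endoneurial level.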
